A study of Mus musculus with 13 samples.

Results

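The genes described here are 10 of the 55401 genes in the deposited tables, and they code for proteins of the brain's extracellular matrix. They were chosen by symbol, and each symbol named a single row. Acan, Bcan, Ncan and Vcan code for the lecticans aggrecan, brevican, neurocan and versican. Tnc and Tnr code for tenascin-C and tenascin-R, Hapln1 and Hapln4 for link proteins, Ptprz1 for a phosphatase that carries chondroitin sulfate, and Fn1 for fibronectin. All 10 passed the filter on low counts, which 14985 genes passed.

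Bulk RNA-seq was performed on 1 brain hemisphere of wild-type male C57BL/6J mice, in 13 libraries. The 4 CPZ libraries came from mice fed chow with 0.3% cuprizone, a copper chelator that kills oligodendrocytes, for 4 weeks. The 4 RCV libraries came from mice given that diet over 4 weeks and returned to normal chow for 2 weeks. The 5 CTL libraries came from mice on normal chow for 6 weeks. The mice were 6 to 8 weeks old per the labels, which give a lower age than the paper. CPZ mice were collected at week 4 and the others at week 6, so cuprizone and the shorter time cannot be told apart between CPZ and CTL. Likewise, the return to normal chow and the longer time cannot be told apart between CPZ and RCV. A whole hemisphere mixes grey and white matter and all cell types. In such tissue, fewer cells of a type and less RNA per cell cannot be told apart.

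The extracellular matrix of the adult brain holds little fibrillar protein and much hyaluronan, a long sugar chain. Lecticans bind hyaluronan at one end and tenascins at the other, and link proteins lock the lecticans onto the chain. Around some neurons these parts build the perineuronal net, and around nodes of Ranvier a related coat. The chondroitin sulfate chains of lecticans are known to slow the growth of axons and of oligodendrocyte precursors. Fibronectin is mostly a matrix protein of blood vessels, meninges and plasma, and it is known to be deposited in demyelinated lesions.

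The estimated counts of a library summed to between 4605100 and 8197289. Levels are given as TPM, which the authors scaled to transcript length, or as CPM, counts relative to library size after TMM scaling. Fold changes, 95% intervals and adjusted p values come from the quasi-likelihood test of edgeR, adjusted by Benjamini-Hochberg over all 14985 genes, and a gene was called where the adjusted p was below 0.05. Between CPZ and CTL, 7.66% of the genes tested passed as higher and 2.5% as lower in CPZ. Among the 10 matrix genes 1 was called higher and none lower, with 3 at an unadjusted p below 0.05. Between CPZ and RCV, 5.13% of all genes tested were higher and 1.88% lower in CPZ by this rule, against 1 and 0 of the 10 genes. Between RCV and CTL, 0.36% were called higher and 0.0133% lower in RCV. None of the 10 genes was called there, none was at an unadjusted p below 0.05, and DESeq2 and limma-voom called none either. The contrasts share libraries and are not independent of each other.

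Fn1 was the gene called in both contrasts. In CTL libraries 1 to 5 its TPM was 18.6, 24.0, 15.5, 19.8 and 20.5. In CPZ libraries 1 to 4 it was 63.3, 66.8, 33.9 and 55.4. In RCV libraries 1 to 4 it was 22.2, 18.5, 25.7 and 19.7. Every CPZ library thus lay above every CTL and every RCV library, and the RCV and CTL libraries overlapped. CPZ replicate 3 was the lowest CPZ library, and it still lay above the highest RCV library. Fn1 was 2.89-fold higher in CPZ than in CTL (95% interval 2.03 to 4.12, adjusted p = 8.9e-04, edgeR) and 2.51-fold higher in CPZ than in RCV (1.72 to 3.67, adjusted p = 0.00724, edgeR). RCV was at 1.15-fold of CTL (0.798 to 1.67, adjusted p = 0.984, edgeR). The gene models of GENCODE M21 place Fn1 on the minus strand of chromosome 1, chr1:71585520-71653200 in GRCm38. The gene held between 265 and 1780 counts per library. An antisense gene, Apol7d, overlaps 292 bases of its exons and had a count of 0 over all libraries.

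Markers of the cell types that make fibronectin elsewhere were read beside it. None of 8 endothelial, 7 pericyte or 9 fibroblast markers was called between CPZ and CTL. The summed CPM of the endothelial list was 239 to 277 in CTL and 232 to 251 in CPZ libraries, that of the pericyte list 237 to 278 and 229 to 241, and that of the meningeal and perivascular fibroblast list 97.9 to 192 and 86.4 to 193. All 10 microglia markers were higher in CPZ by this test, with a summed CPM of 329 to 396 in CTL, 1178 to 2518 in CPZ and 502 to 688 in RCV. The same 10 markers were called higher in CPZ than in RCV, the other contrast in which Fn1 was called. In RCV the microglia sum lay above every CTL library, while Fn1 in RCV overlapped CTL. Between RCV and CTL neither Fn1 nor any of the 10 microglia markers was called. Of these markers, 9 had an unadjusted p below 0.05 there (edgeR). No endothelial or pericyte marker was called between CPZ and RCV, and 1 fibroblast marker, Col1a1, was called lower in CPZ (0.270-fold, adjusted p = 0.0396, edgeR). Among 8 markers of border macrophages and blood monocytes only Mrc1 and F13a1 passed the filter, and neither was called in either contrast. The summed CPM of all 8 markers, with those that did not pass the filter, was 3.94 to 10.3 in CTL and 6.84 to 11.5 in CPZ. The part of any of these cell types in the Fn1 difference was not tested.

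**Figure D1:**
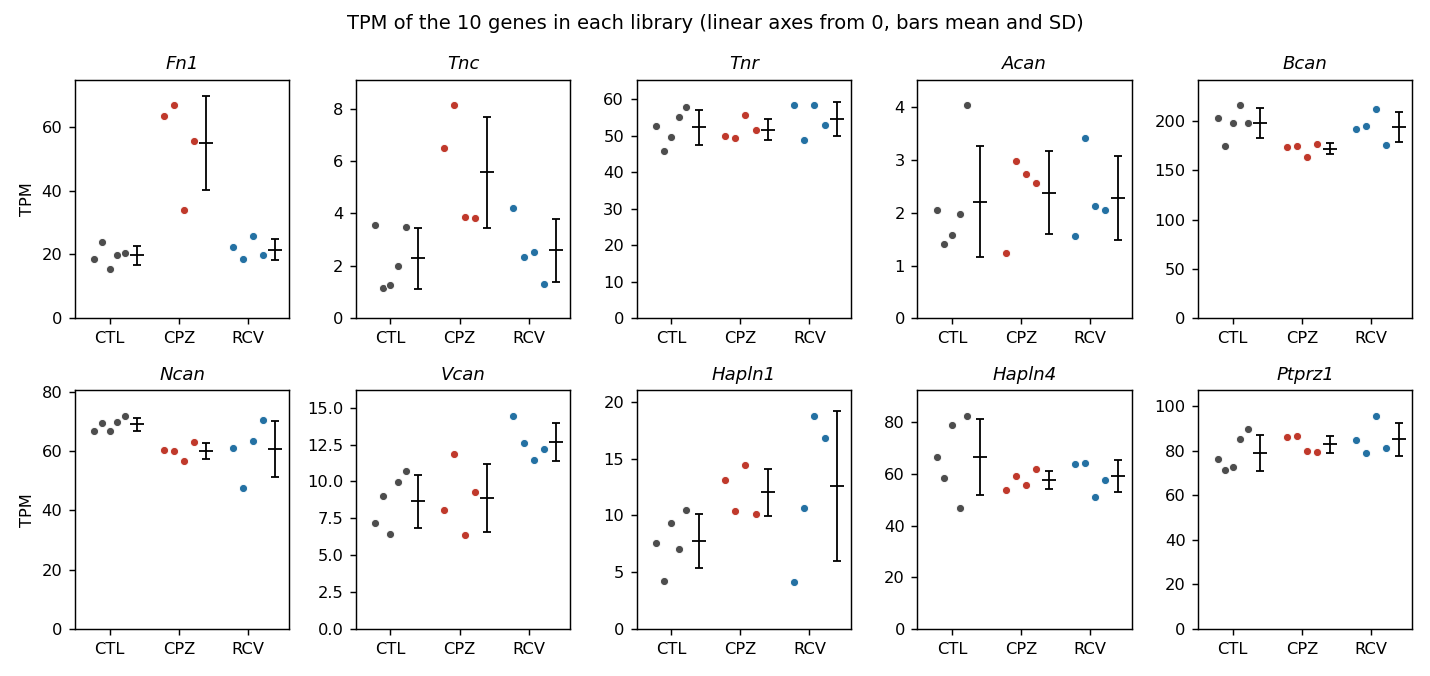
TPM of each gene (linear axis from 0) in the CTL (grey), CPZ (red) and RCV (blue) libraries, with the mean and SD to the right of each group. For Fn1 the CPZ libraries, at 33.9 to 66.8 TPM, sit above all others, while for most genes the groups overlap.

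Tenascin-C, a tenascin that is scarce in the adult brain and known to be made by astrocytes near wounds, had the next largest difference. Tnc TPM in CTL libraries 1 to 5 was 3.56, 1.17, 1.26, 1.98 and 3.47. In CPZ libraries 1 to 4 it was 6.51, 8.13, 3.85 and 3.82, and in RCV libraries 1 to 4 it was 4.22, 2.34, 2.52 and 1.30. All CPZ libraries lay above all CTL libraries, but the lowest CPZ and the highest CTL library were close, and CPZ and RCV overlapped. Tnc was 2.51-fold as high in CPZ as in CTL (95% interval 1.40 to 4.51, adjusted p = 0.0502, edgeR) and 2.11-fold as high as in RCV (1.13 to 3.94, adjusted p = 0.167, edgeR), and neither passed the threshold. RCV was at 1.19-fold of CTL (0.624 to 2.26, adjusted p = 0.993, edgeR). The counts behind these values were low, between 20 and 235 per library. The call between CPZ and CTL was made by DESeq2 (adjusted p = 0.00604) and limma-voom (0.0194), and by edgeR without CTL replicate 1 (0.0334), CTL replicate 5 (0.0429), CPZ replicate 3 (0.0462), CPZ replicate 4 (0.0473), RCV replicate 1 (0.0386) or RCV replicate 4 (0.0391). Over all 23 alternatives the adjusted p ran from 0.00604 to 0.158, and 11 of them made the call.

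Of the 10 reactive astrocyte markers, 9 passed the filter, and 8 of these passed as higher in CPZ than in CTL. The summed CPM of all 10 was 219 to 289 in CTL, 1061 to 1412 in CPZ and 628 to 958 in RCV. Against RCV, 7 of the 9 were called higher in CPZ. In RCV this sum lay above every CTL library, while Tnc in RCV overlapped CTL. Gfap alone gave 473 to 755 of the summed CPM in RCV. Between RCV and CTL, only 2 of the 9 were called higher, and 3 had a log2 fold change below 0. How far astrocyte reactivity moves with Tnc was not tested.

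Tnc lies on the minus strand at chr4:63959785-64047015 (GRCm38). A promoter of Tnc is shown because Tnc had the largest difference among the genes with an entry in the promoter table. That table has 2 entries for Tnc, and only the first is shown and was searched. The window holds the 250 bases upstream of the start at chr4:64047016-64047265, from RefSeq on GRCm38.p6, read 5′ to 3′ on the gene's strand. Capitals mark matches to the letters of the TATA box (TATAAA) and of the GC box (GGGCGG).
Tnc: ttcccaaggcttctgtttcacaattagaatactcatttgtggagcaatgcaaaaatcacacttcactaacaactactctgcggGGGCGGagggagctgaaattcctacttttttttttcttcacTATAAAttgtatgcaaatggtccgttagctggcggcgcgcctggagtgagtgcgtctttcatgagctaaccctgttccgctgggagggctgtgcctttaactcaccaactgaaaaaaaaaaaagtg
The TATAAA match ends 121 bases and the GGGCGG match 162 bases before the start, and whether either works as such a box was not tested. Among 32851 promoter windows of this length, 12.4% hold TATAAA and 32.7% hold GGGCGG on either strand. An AP-1 site (TGANTCA) and a SOX motif (ACAAAG), also searched on both strands, have no match in this window and are found in 6.75% and 16.5% of all windows.

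Tenascin-R, the tenascin of perineuronal nets and nodes of Ranvier that oligodendrocytes and interneurons make, was far more abundant than Tnc. Tnr TPM ran from 45.9 to 57.9 in CTL, 49.2 to 55.6 in CPZ and 48.8 to 58.3 in RCV. CPZ was at 1.00-fold of CTL (95% interval 0.917 to 1.09, adjusted p = 0.998, edgeR), so a change above 1.09-fold or below 0.917-fold lay outside the interval. RCV was at 1.06-fold of CTL (0.976 to 1.16, adjusted p = 0.933, edgeR). All 10 markers of mature oligodendrocytes were called lower in CPZ than in CTL, with a median log2 fold change of -1.54, and 9 of the 10 were called lower in CPZ than in RCV, beside the values of Tnr. Within the tenascin pair, Tnc made up 4.08% ± 1.80 of the summed TPM in CTL (SD, n = 5), 9.78% ± 3.72 in CPZ (SD, n = 4) and 4.47% ± 1.79 in RCV (SD, n = 4). The lowest CPZ share, 6.47%, was above the highest CTL share, 6.33%, and below the highest RCV share, 6.76%.

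None of the lecticans was called in any contrast. Over the 4 genes the median log2 fold change between CPZ and CTL was -0.05, where the median over all genes tested was -0.02. Bcan, the most abundant lectican by TPM and a product of astrocytes and oligodendrocyte precursors, had 0.899-fold the CTL level in CPZ (95% interval 0.808 to 1.00, adjusted p = 0.236, edgeR). Its TPM in CTL libraries was 175 to 216, in CPZ 164 to 177 and in RCV 176 to 212. Ncan, made by neurons and astrocytes, was at 0.891-fold in CPZ (0.788 to 1.01, adjusted p = 0.257, edgeR). Its CPM in CTL libraries 1 to 5 was 237, 245, 236, 243 and 246, against 215, 213, 201 and 232 in CPZ and 217, 171, 231 and 248 in RCV libraries 1 to 4. The CPZ libraries therefore all lay below the CTL libraries, but the test did not call the gene, and RCV replicate 2 was lower than any CPZ library. Between CPZ and CTL, 13.1% of all genes tested did not overlap in CPM, and among the 10 genes Fn1, Tnc and Ncan did not. Between CPZ and RCV, 13.2% did not overlap, and Fn1 was the case among the 10 genes. Bcan was at 0.881-fold in CPZ against RCV (95% interval 0.786 to 0.987, adjusted p = 0.202, edgeR), and Acan, Ncan and Vcan were at 0.972, 0.994 and 0.999-fold.

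Versican is mainly a product of oligodendrocyte precursors and of cells of the vessel wall. Vcan CPM was 22.0 to 25.0 in CTL, 23.6 to 28.5 in CPZ and 23.2 to 27.8 in RCV, and CPZ was at 1.06-fold of CTL (95% interval 0.946 to 1.20, adjusted p = 0.594, edgeR). Aggrecan, the lectican of dense perineuronal nets, was the least abundant. Acan held only 28 to 67 counts per library, and CPZ was at 1.03-fold of CTL with a wide interval of 0.695 to 1.54 (adjusted p = 0.954, edgeR). In RCV against CTL the fold of Acan, Bcan, Ncan and Vcan was 1.06, 1.02, 0.896 and 1.06. As shares of the summed lectican TPM, Bcan took 71.2% ± 1.95, Ncan 24.9% ± 1.50, Vcan 3.11% ± 0.61 and Acan 0.79% ± 0.36 in CTL (SD, n = 5). In CPZ these shares were 70.7% ± 0.72, 24.7% ± 0.44, 3.63% ± 0.83 and 0.98% ± 0.33 (SD, n = 4). In RCV they were 71.9% ± 3.38, 22.5% ± 3.55, 4.72% ± 0.58 and 0.86% ± 0.32 (SD, n = 4). The Vcan share was 3.96% to 5.37% in RCV libraries, above the 2.36% to 3.76% of CTL, and in CPZ, at 2.77% to 4.74%, it overlapped both. As a share of summed lectican CPM, Vcan took 4.55% to 5.14% in CTL, 5.18% to 6.29% in CPZ and 4.86% to 6.03% in RCV, so on that scale RCV overlapped CTL and CPZ lay just above it.

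**Figure D2:**
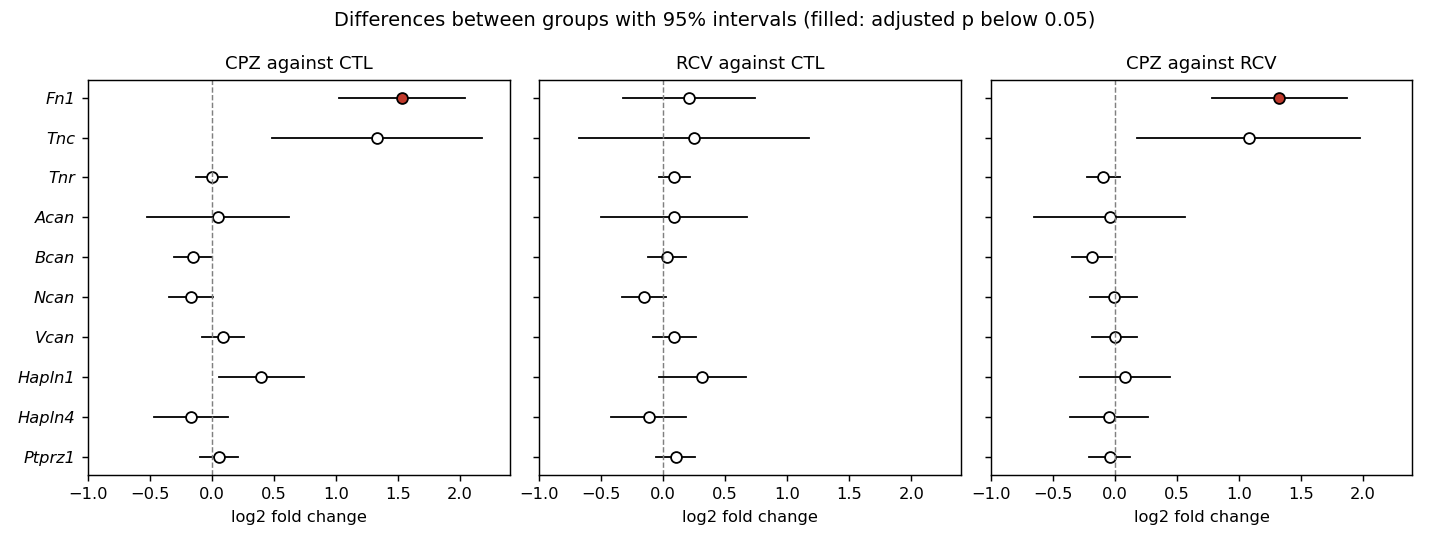
Log2 fold change (points) and 95% interval (lines) of each gene in the 3 contrasts, with filled points for genes called at an adjusted p below 0.05. Only Fn1 is filled, in CPZ against CTL (1.53) and CPZ against RCV (1.33), while Tnc lies at 1.33 and 1.08 with wider intervals.

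Neither link protein was called in any contrast. Hapln1, which stabilizes lecticans on hyaluronan in perineuronal nets, was at 1.32-fold of CTL in CPZ (95% interval 1.04 to 1.67, adjusted p = 0.146, edgeR) and at 1.24-fold in RCV (0.974 to 1.59, adjusted p = 0.853, edgeR). Its CPM in CTL libraries 1 to 5 was 12.0, 10.5, 10.1, 9.48 and 10.5. CPZ libraries 1 to 4 had 12.2, 11.8, 14.4 and 17.0, and RCV libraries 1 to 4 had 11.7, 9.23, 16.7 and 15.2. Only CPZ replicate 2 lay below the highest CTL library, and the RCV libraries spread from below to well above CTL. Hapln4, a link protein of inhibitory synapses, was at 0.893-fold of CTL in CPZ (0.726 to 1.10, adjusted p = 0.568, edgeR) and at 0.922-fold in RCV (0.749 to 1.14, adjusted p = 0.984, edgeR). Its TPM ran from 46.7 to 82.4 in CTL, a range that held all CPZ and RCV libraries. Ptprz1, a receptor for tenascins and pleiotrophin on astrocytes and oligodendrocyte precursors, was at 1.04-fold in CPZ (0.935 to 1.16, adjusted p = 0.722, edgeR) and at 1.07-fold in RCV (0.961 to 1.19, adjusted p = 0.962, edgeR). Ptprz1 TPM was 71.5 to 89.8 in CTL, 79.3 to 86.4 in CPZ and 78.9 to 95.6 in RCV. Between CPZ and RCV, Hapln1, Hapln4, Ptprz1 and Tnr were at 1.06, 0.968, 0.973 and 0.939-fold. Parvalbumin interneurons are the best known wearers of perineuronal nets, and none of their 6 markers was called in any contrast.

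Each lectican gene has a link protein gene as its neighbour, with no protein-coding gene between them. Acan lies 2 bases from Hapln3 on chromosome 7, Bcan 21519 bases from Hapln2 on chromosome 3, Ncan 2222 bases from Hapln4 on chromosome 8 and Vcan 43659 bases from Hapln1 on chromosome 13. Of these link proteins, Hapln2 was called. Hapln2, the link protein of nodes of Ranvier that oligodendrocytes make, fell in CPZ to 0.360-fold of CTL (adjusted p = 2.1e-04, edgeR), while Bcan next to it was at 0.899-fold, and the difference between the genes was not tested. Hapln2 CPM was 19.0 to 39.7 in CTL, 9.16 to 12.5 in CPZ and 18.4 to 32.9 in RCV, so CPZ lay below the other groups. Hapln2 was also lower in CPZ than in RCV, at 0.405-fold (adjusted p = 0.00226, edgeR). Hapln3 had a mean CPM of 1.40 in CPZ and 1.51 in CTL and was not called. The bases upstream of Bcan and Hapln2 are shown because Hapln2 was the called link protein and Bcan is the lectican beside it. Both are from RefSeq on GRCm38.p6, on the minus strand, at chr3:88000357-88000606 for Bcan and chr3:88027584-88027761 for Hapln2, without bases in exons of GENCODE M21. A match to the letters of the GC box (here as CCGCCC, the reverse complement) is in capitals.
Bcan: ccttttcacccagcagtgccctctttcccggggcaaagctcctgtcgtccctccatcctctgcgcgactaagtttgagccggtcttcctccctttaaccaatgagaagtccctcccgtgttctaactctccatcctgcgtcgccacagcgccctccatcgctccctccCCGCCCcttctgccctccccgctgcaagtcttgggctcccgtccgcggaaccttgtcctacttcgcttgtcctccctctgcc
Hapln2: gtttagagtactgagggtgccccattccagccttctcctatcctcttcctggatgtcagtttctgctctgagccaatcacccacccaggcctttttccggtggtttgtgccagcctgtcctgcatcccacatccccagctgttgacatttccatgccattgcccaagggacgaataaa
The Hapln2 window of 178 bases has no match to any of the 4 motifs, and 20.7% of all windows of that length hold GGGCGG.

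The order of levels between genes was taken from TPM, since CPM is not scaled to transcript length. Within the lecticans the order differed by CPM, where Ncan took 48.8% and Bcan 45.0% of the sum in CTL. In CTL the order was Bcan, Ptprz1, Ncan, Hapln4, Tnr, Fn1, Vcan, Hapln1, Tnc and Acan, with means of 198, 79.1, 68.9, 66.6, 52.2, 19.7, 8.65, 7.72, 2.29 and 2.21. Bcan stood 2.50-fold above Ptprz1 with no overlap. Libraries also did not overlap between Tnr and Fn1, between Fn1 and Vcan and between Hapln1 and Tnc. From Ptprz1 down to Tnr, each gene overlapped the next, as did Vcan and Hapln1, and Tnc and Acan. In CPZ, Fn1 stood in the fifth place, not the sixth, at 54.8 ± 14.8 TPM (SD, n = 4) and overlapped Hapln4 and Tnr, and Hapln1 stood above Vcan with overlap. In RCV it was back below Tnr, at 21.5 ± 3.16 TPM (SD, n = 4), and the order was that of CTL.

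Vcan and Hapln1 differed between the scales. In TPM, Vcan was 14.4, 12.6, 11.4 and 12.2 in RCV libraries 1 to 4, above the CTL libraries at 7.18, 8.98, 6.43, 9.95 and 10.7. By CPM, RCV was at a log2 ratio of 0.09 to CTL, and by TPM at 0.55. Between RCV and CTL, 2.3% of all genes tested did not overlap in TPM and 2.9% in CPM, and of the 10 genes Vcan alone did not overlap in TPM and none did not in CPM. The count divided by the TPM gives the transcript length the authors' estimate used, up to a factor set per library from genes with a single transcript. For Vcan this implied length was 4745 to 7164 bases in CTL, 4096 to 8234 in CPZ and 3290 to 4715 in RCV. The largest was 2.50 times the smallest, a spread at the 99.3rd percentile of 9809 genes with at least 50 counts in every library, where the median was 1.19. The annotation gives Vcan 9 transcripts of 294 to 12427 bases. For Hapln1 the ratio was 3.27, at the 99.8th percentile, and its implied length ran from 1766 to 5769 bases over transcripts of 5715 and 464 bases. RCV replicate 1 had the longest implied length of Hapln1 and the lowest TPM, 4.17, at a CPM of 11.7. By its construction the TPM of a gene depends on the split of reads over transcripts as well as on the number of reads. Counts did not show the RCV difference of Vcan (1.06-fold, 95% interval 0.944 to 1.20, adjusted p = 0.977, edgeR). Of the remaining 8 genes, Acan had a ratio of 1.64 and the others 1.27 or less.

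**Figure D3:**
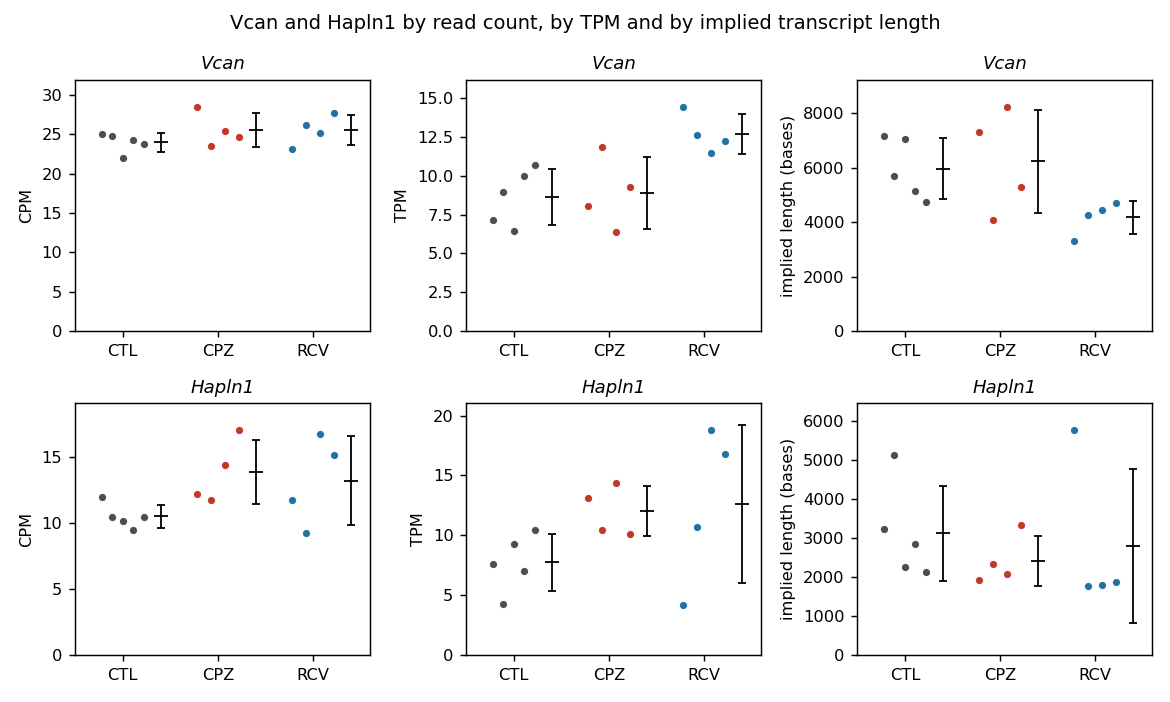
Vcan (top) and Hapln1 (bottom) in each library as CPM, TPM and implied transcript length in bases (linear axes from 0), with the mean and SD of each group. The RCV libraries of Vcan overlap CTL in CPM, lie above it in TPM (11.4 to 14.4) and below it in implied length (3290 to 4715 bases).

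Of 121 other matrix genes in 7 lists, 110 passed the filter, and 16 were called higher and 2 lower in CPZ than in CTL. Over all genes tested, 7.66% were called higher and 2.5% lower in this contrast. The median log2 fold change of the 110 genes was -0.03, against -0.02 over all genes tested. Between CPZ and RCV 8 of the 110 were called higher and 3 lower, against 5.13% and 1.88% of all genes tested. Between RCV and CTL edgeR called none, with 11 at an unadjusted p below 0.05. DESeq2 called 1 of the proteases and inhibitors and 2 of the secreted glycoproteins there, and limma-voom none.

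The enzymes that build and sulfate chondroitin sulfate did not pass the test between CPZ and CTL in any of 21 cases (edgeR, DESeq2 and limma-voom), with 4 at an unadjusted p below 0.05, though 1 was called without CTL replicate 2. Chsy1, a chondroitin synthase, was called higher in CPZ than in RCV (1.41-fold, adjusted p = 0.0289, edgeR). Its CPM was 16.5 to 21.1 in CPZ, 11.5 to 16.0 in RCV and 12.7 to 16.4 in CTL. This call was lost without CPZ replicate 2 or 4 or without RCV replicate 1, 2 or 3 (adjusted p up to 0.107, edgeR). Among the genes of hyaluronan, the receptors Cd44 and Stab1 were called and the synthases, hyaluronidases and Cemip genes that passed the filter were not. Cd44 rose from 2.46 to 5.70 CPM in CTL to 17.2 to 30.8 in CPZ, 5.59-fold (adjusted p = 1.5e-06, edgeR). In RCV it was 5.64 to 8.65 CPM, 1.70-fold of CTL (adjusted p = 0.358, edgeR). Stab1, a scavenger receptor of macrophages, was 3.24-fold higher in CPZ than in CTL (adjusted p = 6.1e-06, edgeR).

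Among 19 other proteoglycan core proteins, 3 passed as higher in CPZ than in CTL. Srgn, the proteoglycan of leukocyte granules, was 2.20-fold higher (adjusted p = 0.00122, edgeR), and Sdc4, a cell surface heparan sulfate proteoglycan, 1.47-fold (adjusted p = 0.00143, edgeR). Cspg4, known as NG2 on oligodendrocyte precursors and pericytes, was 1.37-fold higher (adjusted p = 0.0396, edgeR), though its CPM of 32.5 to 52.1 in CPZ overlapped the 26.0 to 35.9 in CTL. The Cspg4 call was made under 10 of 23 alternatives. It was lost by limma-voom and without CTL replicate 1, 2, 3 or 5, CPZ replicate 1 or 2 or RCV replicate 1 (adjusted p up to 0.148 with a library left out, edgeR), while Srgn and Sdc4 were called under all 23. Cspg4 was the only called gene of the 7 precursor markers that passed the filter, whose median log2 fold change was 0.04. Cspg5, neuroglycan C, was at 0.906-fold (adjusted p = 0.297, edgeR). Agrn, agrin, was called lower in CPZ than in RCV, at 0.848-fold (adjusted p = 0.0192, edgeR), and not without CPZ replicate 1, 2 or 3 or RCV replicate 1 or 3 (up to 0.0786).

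Of the receptors and partners of the 10 proteins, the integrin subunits Itgb1 (1.32-fold, adjusted p = 0.00177), Itgb3 (2.12-fold, adjusted p = 0.00194) and Itgb8 (1.28-fold, adjusted p = 0.00513) were higher in CPZ than in CTL by edgeR. These subunits belong to integrins that bind fibronectin or vitronectin. Itga5, the alpha subunit of the classical fibronectin receptor, was at 1.70-fold with a wide error and was not called (adjusted p = 0.489, edgeR). Mdk, midkine, a ligand of Ptprz1, was 1.50-fold higher (adjusted p = 0.0262, edgeR), and not called without CTL replicate 1, 2 or 5 or CPZ replicate 1 or 3 (up to 0.0934). The phosphatase receptors of chondroitin sulfate, Ptprs, Ptprf and Ptprd, were not called in any contrast.

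Among 18 proteases and inhibitors tested, 5 were called higher and 1 lower in CPZ than in CTL. Plau, the urokinase that activates plasmin, was 6.95-fold higher in CPZ than in CTL (adjusted p = 1.3e-05, edgeR), at 10.7 to 24.3 CPM against 1.50 to 4.00. Serpine2, a protease inhibitor that blocks urokinase, was higher as well (1.50-fold, adjusted p = 3.1e-04, edgeR). Adamts1 (1.58-fold, adjusted p = 0.0102) and Mmp2 (1.74-fold, adjusted p = 0.0459), which cut lecticans, were higher by edgeR too. The Mmp2 call was lost without CTL replicate 1, 4 or 5, any 1 CPZ library or RCV replicate 1 (adjusted p up to 0.172, edgeR). Adamts4, an aggrecanase that in the brain is found in oligodendrocytes, was lower, at 0.473-fold (adjusted p = 0.00207, edgeR). Its CPM was 28.3 to 49.2 in CTL, 17.3 to 21.0 in CPZ and 32.3 to 64.0 in RCV, and CPZ lay below both other groups. Timp1 did not pass the filter.

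Among 24 other secreted glycoproteins, Spp1 and Tgfbi were the calls, both higher in CPZ than in CTL. Spp1, osteopontin, had 4.92 to 13.8 CPM in CTL, 50.2 to 214 in CPZ and 18.5 to 26.4 in RCV, and CPZ was 13.7-fold above CTL (adjusted p = 1.6e-04, edgeR). Tgfbi, a matrix protein induced by TGF-beta, was 1.88-fold higher (adjusted p = 0.0382, edgeR), and not called without CTL replicate 1, 3, 4 or 5 or CPZ replicate 1, 2 or 3 (up to 0.105). The laminins, nidogens, collagen IV chains and fibulins on the list, which with fibronectin make up vessel walls, were not called in any contrast.

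**Figure D4:**
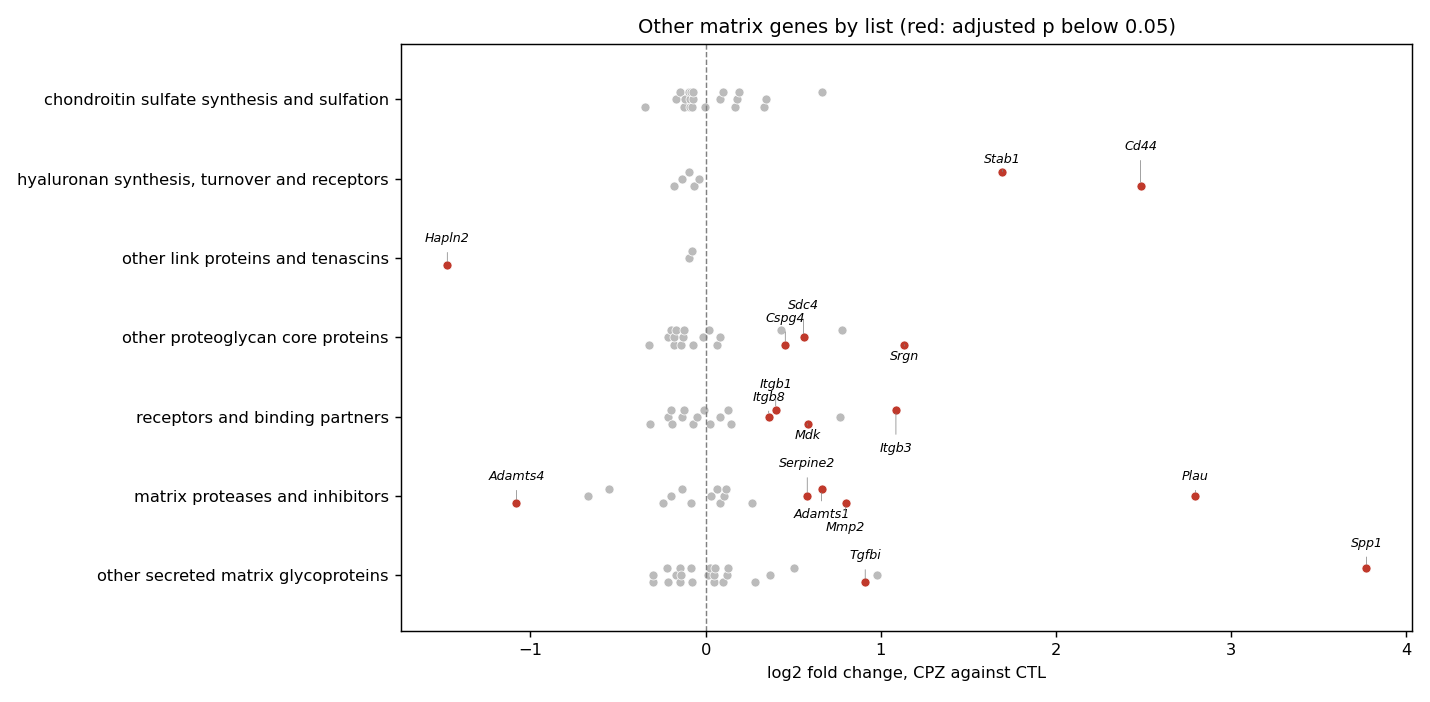
Log2 fold change between CPZ and CTL of the other matrix genes tested, by list, with called genes in red and named and with 1 gene left out. Those called higher include Spp1 at 3.77, Plau at 2.80 and Cd44 at 2.48, and the 2 called lower are Hapln2 at -1.47 and Adamts4 at -1.08.

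The other marker lists gave the makeup of the libraries. Between CPZ and CTL, 4 of 10 astrocyte markers were called higher, none of 8 neuron markers was called (summed CPM of 4822 to 6332 over all libraries), and 1 of 4 cerebellum and hindbrain markers that passed the filter, En2, was called lower. None of 7 hippocampus and 7 choroid plexus markers was called in any contrast. The summed CPM of the choroid plexus markers ran from 421 to 2762 in CTL, 622 to 2360 in CPZ and 15.8 to 1435 in RCV, so the libraries held unequal amounts of that tissue. Between RCV and CTL, 1 astrocyte and 2 reactive astrocyte markers were called higher and 1 endothelial marker, Cldn5, lower. Between CPZ and RCV, 2 astrocyte markers, Aldh1l1 and Sox9, were called higher and 1, Fgfr3, lower in CPZ, beside the reactive astrocyte, microglia, mature oligodendrocyte and fibroblast markers given above. The part of these differences in the values of the 10 genes was not tested. The Fn1 call between CPZ and CTL was made without each library in turn. Leaving out 1 library cannot address a makeup that all libraries of a group share.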

How the data were processed

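The 10 genes and all lists were chosen with earlier results of these data known. The authors deposited 2 tables, 1 of estimated counts per gene that keep each library's depth and 1 of TPM. The submitters' processing notes name STAR, RSEM and mm10, without versions or settings. Whether counting used strand is not given in the sources used here. Paired reads of 50 bases came from a Kapa mRNA HyperPrep library on an Illumina instrument. Groups followed the labels' treatment field, since the titles of RCV libraries begin with "Veh". The labels' protocol gives fewer mice per group than the 13 libraries. Nothing in the labels ties libraries to separate mice beyond their numbering, and p values measure the spread between these libraries.

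Estimated counts (4.45% were not whole) were rounded. Of the rows, 92 spike-in sequences with a total of 0 were left out. Genes were filtered by filterByExpr, scaled by TMM and fitted in edgeR 4.0.16 (robust quasi-likelihood, 1 mean per group, no covariate, R 4.3.3), and 3 contrasts were tested and adjusted by Benjamini-Hochberg. The test was checked on simulated counts. Alternatives were DESeq2 1.42.0 and its size factors, limma 3.58.1 (voom, and log2 TPM with a pseudocount of 1 or 0.1, filtered at a TPM of 1 in 4 libraries or not), no filter, at least 10 counts in every library, only the 2 groups compared, the replicate number as a block and each library left out. The implied length was scaled on 231 genes with 1 transcript, whose ratio ran from 0.982 to 1.02 (5th to 95th percentile). Positions are from GENCODE M21, which matched 54349 of 55401 gene identifiers (98.1%). The RefSeq promoter table had 8 of the 10 genes, and Hapln4 and Fn1 had no entry.

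Named in the text are the 10 genes, and of each list of matrix genes those called in a contrast, up to the 6 smallest adjusted p values, with Hapln2, Adamts4, Cd44, Cspg4 and Cspg5. Of each marker list, genes with the largest or smallest change were named, and Aldh1l1 was named because it was called. Gfap, Hapln3, Itga5, Ptprs, Ptprf, Ptprd and Timp1 were named after their values were seen. The values of 1 called gene of the list of proteases and inhibitors are not reported here.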

Additional observations from a re-analysis of the deposited data

Results flagged for a closer look

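In 4 of the 30 groups of libraries tested (10 genes in 3 groups), 1 library stood apart by Dixon's test at 95%, which by chance flags about 1 group in 20. Acan was highest in CTL replicate 5, at 11.9 CPM, with the next library at 6.25. Fn1 was highest in CTL replicate 2, at 80.1 CPM, with the next at 57.8 and the lowest CPZ library at 100.4. Tnr was lowest in CTL replicate 2, at 258 CPM, with the next at 278. Ptprz1 was highest in RCV replicate 3, at 319 CPM, with the next at 272.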

How the results depend on the processing

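Fn1 was called in CPZ against CTL under all 23 alternatives (log2 fold change 1.40 to 1.73, adjusted p 4.6e-11 to 0.0149) and in CPZ against RCV (1.20 to 1.53, adjusted p 4.1e-07 to 0.0445), and in RCV against CTL under none. The number of the 10 genes called between CPZ and CTL was 2, with Tnc, under DESeq2, DESeq2 size factors, limma-voom, at least 10 counts in every library and the replicate block, and 1 to 2 with a library left out. The replicate numbers did not pair the libraries (12 same-number correlations of -0.217 to 0.181, 1 of 13 libraries closest to its own number), and under the replicate block 1172, 42 and 755 genes were called. All genes called in CPZ against CTL were 1522, 993 by limma on log2 TPM without a filter, and 1078 to 1680 with a library left out. In RCV against CTL they were 56, 131 by DESeq2, 16 by limma-voom and by unfiltered TPM, 20 with at least 10 counts, and 21 (without RCV replicate 2) to 87 (without CPZ replicate 3). In CPZ against RCV they were 1050, 584 and 503 by TPM with a pseudocount of 1 and 0.1, 477 without a filter, and 632 (without CPZ replicate 1) to 1170. Of the other matrix genes named, Cspg4, Mdk, Mmp2 and Tgfbi between CPZ and CTL were called under 10, 16, 11 and 13 of 23 alternatives, and Chsy1 and Agrn between CPZ and RCV under 14 and 13. Itgb8 and Adamts1 between CPZ and CTL were called under 20, and not on TPM, and Itgb3 under 22. Between CPZ and RCV, DESeq2 called 5 receptors and partners and 5 proteases and inhibitors, against 2 and 3 by edgeR.

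Of values that were not called, some changed sign near 0. The log2 fold change of Tnr between CPZ and CTL was 0.00118 with DESeq2 size factors, 0.00150 by DESeq2, 0.0182 without a filter, 0.0139 with at least 10 counts, 0.0152 with only the 2 groups and 0.00735 with the replicate block. Bcan between RCV and CTL was -0.0296 and -0.0297 by TPM with a pseudocount of 1 and 0.1. Between CPZ and RCV, Acan was 0.0355 and 0.0400 by TPM with these pseudocounts. Ncan was 0.00311 by limma-voom, 0.0200 without a filter and 0.00435 with at least 10 counts, and Vcan 0.000175, 0.0273 and 0.0123. With a library left out, Acan ran from -0.0717 to 0.353 and Tnr from -0.0249 to 0.0466 in CPZ against CTL. In RCV against CTL, Acan ran from -0.0631 to 0.384, Bcan from -0.0333 to 0.0776 and Tnc from -0.104 to 0.491. In CPZ against RCV, Acan ran from -0.148 to 0.117, Ncan from -0.108 to 0.0707, Vcan from -0.0494 to 0.0468, Hapln1 from -0.0588 to 0.219, Hapln4 from -0.109 to 0.0125 and Ptprz1 from -0.0674 to 0.0293. The cause was not tested. Of the 10 genes, Acan and Tnc had the lowest counts, with as few as 28 and 20 in a library.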
